A study of Mus musculus with 1699 samples.

Results

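Barhl1, Pitx1, Zic1, Zic4, Eomes, Nkx2-1, Lhx9, Otp and Tcf7l2 encode 9 transcription factors that pattern the diencephalon and neighbouring brain regions, and they make up 9 of the 39468 entries measured in every cell of this data set. They were listed together as regional factors and selected on values of these same cells, namely their shares of cells over an RPKM of 10 by stage, their joint expression and their relation to Th, Pitx3 and Slc17a6. Those values are therefore given as a description, with no test. RPKM is a read level corrected for the length of the gene and the depth of the cell, and a cell was counted as positive for a factor over an RPKM of 10. No tissue position was recorded, so the regions named below are background and were not measured.

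The cells were GFP-positive cells sorted from the ventral midbrain of mice that carry the Pitx3tm1Mli allele, in which eGFP takes the place of Pitx3 coding sequence, and were sequenced one by one with the full-length Smart-seq2 method. Heterozygotes, called Pitx3eGFP/wt, still have 1 working Pitx3 allele and were collected at 6 ages, 3 before birth (E13.5, E15.5 and E18.5) and 3 after it (P1, P7 and P90). Homozygotes, called Pitx3eGFP/eGFP, lack a working Pitx3 allele and were collected at E13.5 and P1. Every cell of every group thus carried eGFP at the Pitx3 locus, and cells were collected through a sorting gate for GFP. The paper excluded sorted cells that clustered with cells lacking eGFP expression. Collection alone therefore does not show expression from that locus. Neither a strain nor a treatment was named in the labels. The study's methods name 1 Miltenyi kit for the 3 embryonic ages, another for P1 and P7, and papain for P90, so the dissociation changed between E18.5 and P1 and again before P90. Spike-in RNA had been added to all homozygous cells, to those of E18.5 and P90 and to some of P1, and not to heterozygous cells of E13.5, E15.5 and P7. Several animals were used per stage and are not named, so cells cannot be assigned to animals, each stage and genotype is 1 sample, no p-value is given, and every interval covers counting error over cells only.

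Before the results, 2 properties of the collection have to be stated. First, 57 pairs of files, each pair with the same number in a P1 title and a P7 title, held nearly the same values: Pearson's r of a pair was 0.954 to 0.993 over 15233 entries, against 0.832 at most for any other pair of cells. Each pair was merged to 1 cell, and these 57 cells were kept as a class of their own, "P1 or P7", because the files do not show which stage is right. Second, of the 1599 cells that passed the depth and detection limits, those in clusters with oligodendrocyte markers were left out, 74 of them from P7, and 1456 were kept. File titles divide some stages into sets, called titled sets here. The 1114 Pitx3eGFP/wt cells kept were 140 at E13.5, 140 at E15.5 and 92 and 95 in the 2 titled sets of E18.5. The P1 or P7 class held 43 and P7 held 52. In the 4 titled sets of P90 there were 94, 92, 93 and 46. From P1, 94 were in a titled set with spike-in RNA, and the rest, titled P1, were without it. The Pitx3eGFP/eGFP cells kept were 87, 22 and 70 in the 3 titled sets of E13.5 and 77 and 86 in the 2 of P1. Reads in genes ranged from 100007 to 8634201 per kept cell, with a median of 1643800. Mean Pitx3 RPKM was 416 in heterozygous and 18.8 in homozygous E13.5 cells, and 101.2 and 8.30 at P1, which follows the genotype labels. Pitx3 was still over 10 in 61.5% of homozygous E13.5 cells, against 87.1% of heterozygous ones, and in 30.7% against 64.8% at P1.

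Midbrain dopamine neurons are born from floor plate progenitors that express Lmx1a and Foxa2, and they switch on Nr4a2 and Pitx3 as they leave the cell cycle. Th, the rate-limiting enzyme of dopamine synthesis, marks their transmitter, and Slc17a6, the vesicular glutamate transporter VGLUT2, marks glutamate release. Just in front of this domain lie the progenitors of the subthalamic nucleus and the hypothalamus, whose floor and basal plate share several of the same genes, and borders between these regions are set by homeodomain, LIM-homeodomain and zinc finger factors of the kind listed here. Barhl1 is a homeodomain factor of the subthalamic and mammillary regions, Otp and Nkx2-1 are homeodomain factors of the hypothalamus, and Lhx9 is a LIM-homeodomain factor of thalamus and pretectum. Pitx1 is the close relative of Pitx3 best known from pituitary and hindlimb, Zic1 and Zic4 are zinc finger factors of the dorsal midline, Eomes is a T-box factor of intermediate progenitors, and Tcf7l2 is a nuclear effector of Wnt signalling found in thalamic neurons and in maturing oligodendrocytes.

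Start sites are shown first for Lhx9, which accompanied Pitx1, and for Zic1, Zic4 and Barhl1, which shared cells with each other. RefSeq promoters of build GRCm38.p6 were matched for 8 of the 9 factors. Each line below gives the 250 bases before a start site, 5′ to 3′ on the strand of the gene, and capitals mark the letters TAAT (a core bound by many homeodomain factors), GGGCGG (a GC box) and CCAAT on either strand. The Lhx9 window is chr1:138842445-138842694 on the minus strand, and Lhx9 was the factor present in every Pitx1 cell of Pitx3eGFP/wt mice. Those of Zic1 (chr9:91365769-91366018, minus strand) and Zic4 (chr9:91368722-91368971, plus strand) belong to a pair of neighbouring genes read in opposite directions, and that of Barhl1 (chr2:28916669-28916918, minus strand) belongs to the factor seen with Zic4 in 3 of its 4 Pitx3eGFP/wt cells.
Lhx9: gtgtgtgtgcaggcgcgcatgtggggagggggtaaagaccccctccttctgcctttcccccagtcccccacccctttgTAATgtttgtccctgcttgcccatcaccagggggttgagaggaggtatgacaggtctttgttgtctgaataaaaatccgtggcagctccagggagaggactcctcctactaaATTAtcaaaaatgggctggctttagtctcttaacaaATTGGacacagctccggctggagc
Zic1: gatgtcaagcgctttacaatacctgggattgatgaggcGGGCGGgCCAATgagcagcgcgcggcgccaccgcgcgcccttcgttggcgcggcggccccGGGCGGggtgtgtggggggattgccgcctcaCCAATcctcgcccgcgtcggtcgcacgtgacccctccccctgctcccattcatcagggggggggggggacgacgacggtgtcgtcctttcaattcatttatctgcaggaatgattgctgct
Zic4: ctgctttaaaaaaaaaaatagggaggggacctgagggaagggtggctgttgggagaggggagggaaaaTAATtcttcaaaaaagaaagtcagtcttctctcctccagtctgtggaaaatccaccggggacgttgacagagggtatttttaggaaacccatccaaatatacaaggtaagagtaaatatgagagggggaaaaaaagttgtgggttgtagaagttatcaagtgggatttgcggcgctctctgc
Barhl1: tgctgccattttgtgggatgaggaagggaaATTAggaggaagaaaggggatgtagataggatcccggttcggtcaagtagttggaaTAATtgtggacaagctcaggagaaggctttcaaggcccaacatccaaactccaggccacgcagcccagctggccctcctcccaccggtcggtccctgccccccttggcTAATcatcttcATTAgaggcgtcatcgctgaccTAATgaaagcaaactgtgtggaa
TAAT was found 5 times before Barhl1, 2 times before Lhx9, once before Zic4 and not before Zic1, while the Zic1 window held 2 GC boxes and 2 CCAAT boxes. Among 32851 RefSeq promoter windows of the same length, 54.9% held TAAT, 32.7% held GGGCGG and 33.9% held CCAAT, so these matches describe the windows and mark no binding site. The Zic1 and Zic4 start sites used lie 3204 bases apart, and in the GENCODE annotation of GRCm38 the Zic1 gene (chr9:91358058-91365810) and the Zic4 gene (chr9:91362413-91389348) overlap on opposite strands. The libraries kept no strand, so reads from the shared stretch could count for either gene; of the 12 kept cells positive for Zic4, 7 had no Zic1 read, and of the 6 positive for Zic1, 3 had no Zic4 read. For Barhl1, Lhx9 and Otp no overlapping gene was annotated, and Pitx1, Eomes, Nkx2-1 and Tcf7l2 each overlap other annotated genes (Gm47071 and Gm28760, Gm33460, Gm26973 and Ppnr). Zic4 also overlaps Gm37477. Of the genes compared with the factors, Pitx3 overlaps Elovl3 on the other strand, Slc17a6 overlaps Gm45072 and Th overlaps none.

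The 9 factors were found in few cells. In Pitx3eGFP/wt mice 81 of 1114 cells (7.27%, exact 95% interval 5.82 to 8.96%) were positive for at least 1 of them, and 1033 for none. Before birth the share was 7.86% at E13.5 (11 cells, interval 3.99 to 13.6%), then 1.43% in E15.5 cells (2 cells, interval 0.173 to 5.07%) and 6.42% by E18.5 (12 cells, interval 3.36 to 10.9%). After birth it was 11.5% in P1 cells (26 cells, interval 7.62 to 16.3%), 13.95% in the P1 or P7 class (6 cells, interval 5.30 to 27.9%), 38.5% in P7 cells (20 cells, interval 25.3 to 52.98%) and 1.23% by P90 (4 cells, interval 0.336 to 3.12%). P7 thus had the highest share and E15.5 and P90 the lowest, the intervals of the last 2 overlapping almost entirely. The P7 sample is also the one that had lost most cells to the oligodendrocyte filter and the one that shared files with P1. That filter worked on clusters and left some marker-bearing cells in. Of the 52 P7 cells kept, 13 still had at least 3 oligodendrocyte markers over the threshold. Over all stages 36 of the 1114 cells did. The part of such cells in the P7 share was not tested.

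By factor, Tcf7l2 was over the threshold in 43 Pitx3eGFP/wt cells (3.86%), Lhx9 in 23 (2.06%), Pitx1 in 17 (1.53%), Zic4 in 11 (0.987%), Nkx2-1 in 9 (0.808%), Zic1 in 5 (0.449%), Barhl1 in 4 (0.359%), Eomes in 2 (0.180%) and Otp in 1 (0.0898%). Neighbours in this order were within each other's counting intervals, except that Tcf7l2 and Lhx9 had intervals of 2.81 to 5.16% and 1.31 to 3.08%, which overlap only at their ends. At P90 all 4 positive cells were Tcf7l2 cells, and the other 8 factors were at 0 cells, which allows each a share of at most 1.13% (exact upper limit). At E15.5 the only positive cells were 1 for Eomes and 1 for Tcf7l2. Some of these shares rested on 1 set of cells. Without the set titled 18_2 that of Pitx1 was 0.883%, and without the cells titled P1 those of Zic4, Nkx2-1 and Eomes were 0.408%, 0.510% and 0.102%.

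In Pitx3eGFP/wt cells the levels left a wide gap at the threshold for Pitx1, Lhx9, Barhl1, Eomes and Otp, a narrow one for Zic4 and Nkx2-1, and none for Zic1 and Tcf7l2. The Pitx1 cell just over the threshold stood at an RPKM of 43.6 and the highest cell under it at 1.04, and Lhx9 showed a like gap, 30.9 against 7.04. The lowest positive and highest negative cells were at 12.5 and 6.61 for Zic4, at 11.1 and 7.69 for Nkx2-1, and at 10.2 and 9.69 for Zic1. For Tcf7l2 they were at 10.4 and 9.89. In homozygous E13.5 cells the lowest positive cells lay nearer the threshold, at 15.9 for Pitx1, 13.9 for Lhx9, 12.1 for Barhl1 and 16.8 for Otp. Tcf7l2 had at least 1 read in 635 of the 1114 cells, and 18 of its 65 positive cells over both genotypes rested on fewer than 10 reads, as did 1 of the 12 Zic4 cells (a single read). Every positive cell of the other 7 factors had 12 or more reads.

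**Figure D1:**
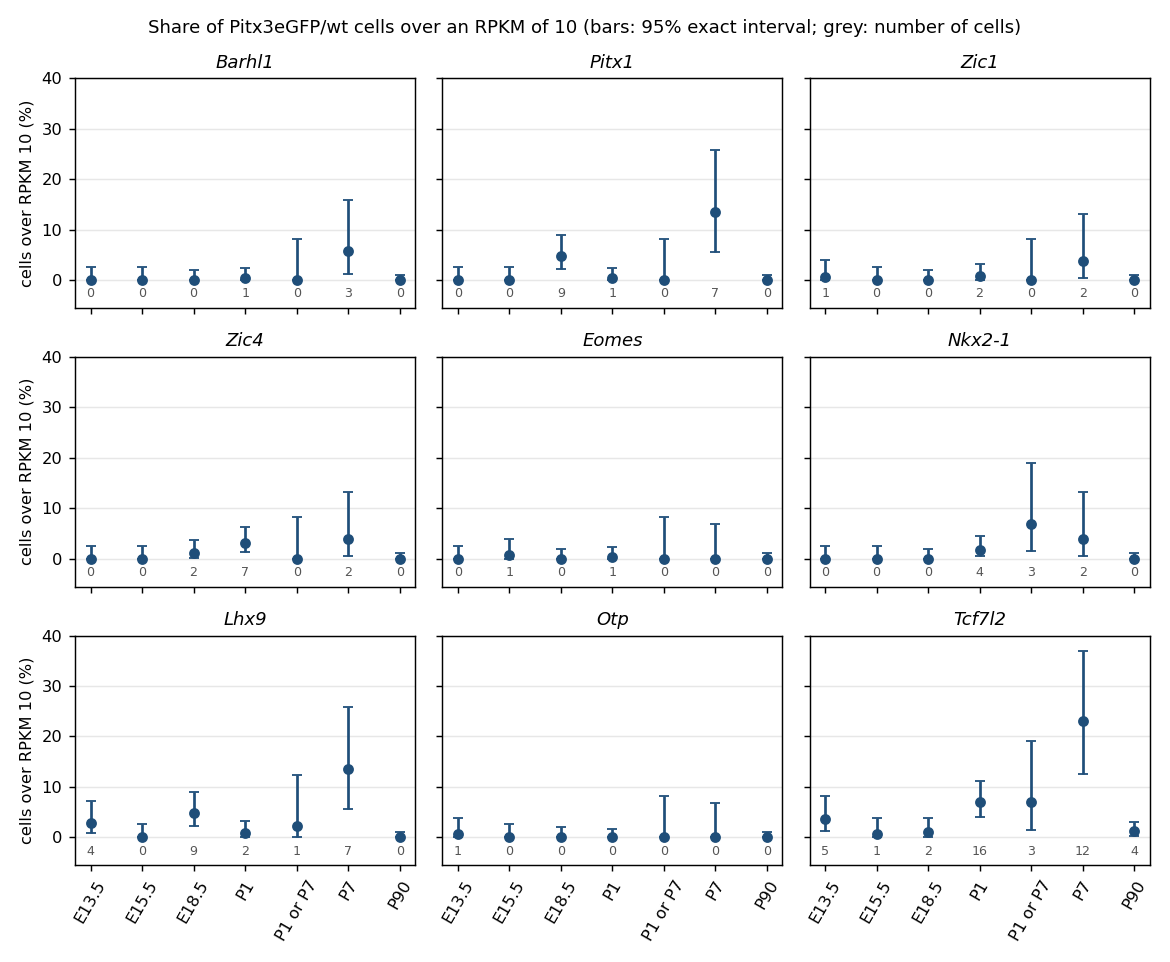
Share of Pitx3eGFP/wt cells over an RPKM of 10 (percent, vertical axis) at each stage (horizontal axis) for each of the 9 factors. Points are shares, bars are exact 95% intervals over cells and grey figures are numbers of positive cells. Pitx1 and Lhx9 are at 4.81% at E18.5 and 13.5% at P7, and Tcf7l2 is at 23.1% at P7, while 8 of the 9 factors are at 0 at P90.

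The clearest pattern among the 9 was the joint presence of Pitx1 and Lhx9. All 17 Pitx3eGFP/wt cells positive for Pitx1 were also positive for Lhx9, and they made up 17 of the 23 Lhx9 cells (73.9%, 51.6 to 89.8%). Of these 17 cells, 9 came from E18.5 (4.81% of its cells, 2.22 to 8.94%), 1 from P1 (0.441%, 0.0112 to 2.43%) and 7 from P7 (13.5%, 5.59 to 25.8%), and none was a merged P1 and P7 cell. At E18.5 they were unevenly spread over 2 titled sets, 8 of 95 cells in that titled 18_2 and 1 of 92 in that titled 18_1. Which animals filled each set is not known. With every P1 and P7 file used as labelled, the P7 share was 7.53% (3.08 to 14.9%), and with the oligodendrocyte-like cells put back it was 5.56%.

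Pitx1 in the 9 E18.5 cells had a lowest, median and highest RPKM of 43.6, 221.3 and 462, and in the 7 P7 cells of 86.9, 188.6 and 427. Lhx9 ran at 63.6, 153.03 and 234.8 in the E18.5 cells and at 31.2, 102.6 and 272.6 in the P7 cells. The single P1 cell had 155.3 for Pitx1 and 72.2 for Lhx9. The other cells of these stages lay apart: their mean Pitx1 RPKM was 0.0173 at E18.5 and lower still at P7, and their mean Lhx9 RPKM was 0.0488 and 0.0607.

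Among these 17 cells Th was nearly absent. Its lowest, median and highest RPKM were 0, 1.97 and 4.72 at E18.5 and 0, 0.818 and 27.7 at P7, and 0 in the P1 cell, whereas the other cells had a median of 1878 at E18.5, of 1038 in P1 cells and of 1345 in P7 cells. None of the 17 was over a Th RPKM of 150, against 70.2% (65.7 to 74.4%) of all other cells of these 3 stages, a difference of -70.2 percentage points (-74.2 to -51.2). With 17 cells, a count of 0 has an upper exact limit of 19.5%.

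Pitx3 and Slc17a6 were present in most of the same cells. Pitx3, the factor that defines the sort, was over 10 in 16 of the 17 (94.1%, 71.3 to 99.9%) against 67.7% elsewhere at these stages, 26.4 points more (4.91 to 32.99), and its median was 141.9, with a range of 0 to 550. Slc17a6 was over 10 in 15 of the 17 (88.2%, 63.6 to 98.5%) against 63.7%, a difference of 24.5 points (1.56 to 34.2), with a median of 117.7 and a range of 0 to 463. The combination of Pitx3 and Slc17a6 over 10 with Th not over 150 was seen in 14 of the 17 cells (82.4%) and in 9.58% of the others. Transcripts of eGFP were over 10 in 15 of 17, a share of 88.2% against 84.9%, with a difference of 3.38 points (-19.4 to 12.6) that was within counting error.

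Pitx1 and Pitx3 are paralogs, so reads could in principle be placed on the wrong one. Of the kept cells with Pitx3 over 150, 96.6% had no Pitx1 read and 8 cells were over 10 for Pitx1. Whether Pitx1 reads were counted for Pitx3 in the Pitx1 cells was not tested.

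**Figure D2:**
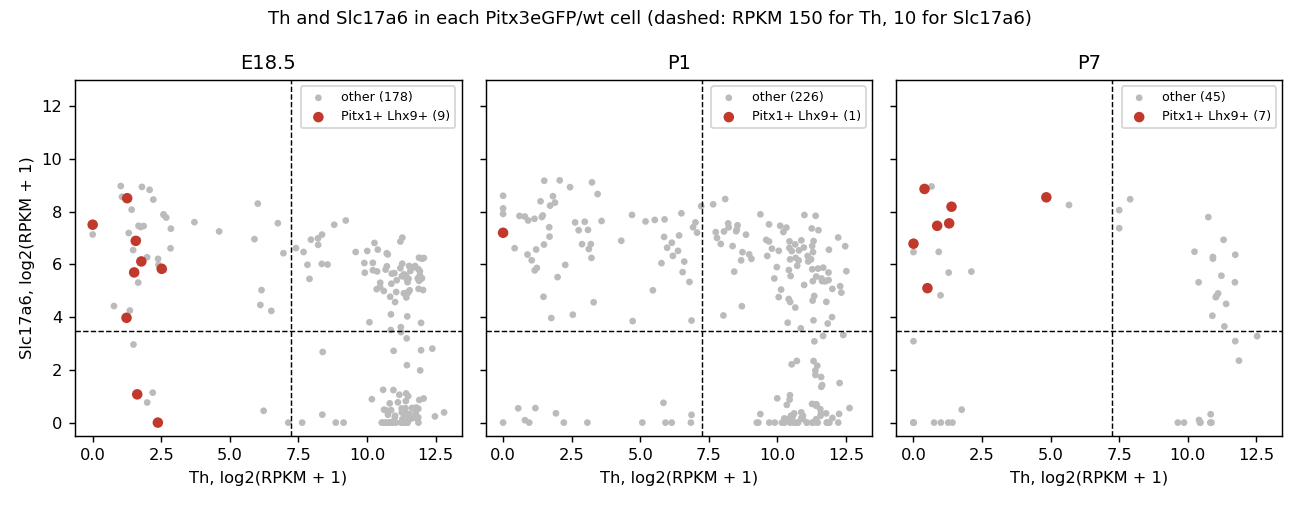
Th (horizontal axis) against Slc17a6 (vertical axis), both log2(RPKM + 1), in each Pitx3eGFP/wt cell of E18.5, P1 and P7, with cells positive for Pitx1 and Lhx9 set apart by colour and dashed lines at an RPKM of 150 for Th and 10 for Slc17a6. All 17 Pitx1 and Lhx9 cells lie left of the Th line, 15 of them above the Slc17a6 line.

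Several factors that accompany Pitx3 in midbrain dopamine neurons were absent or less frequent in the Pitx1 and Lhx9 cells. Nr4a2, the nuclear receptor that switches on the dopaminergic genes, was over 10 in 0 of 17 against 94.7% of the others (difference -94.7 points, -96.4 to -76.1). The floor plate factors Lmx1a, Foxa2 and Foxa1 were also at 0 of 17, against 73.7%, 75.5% and 63.5%. En1, a homeodomain factor of midbrain and anterior hindbrain, was in 3 of 17 (17.6% against 79.3%), and Foxp2, a forkhead factor, in 5 of 17 (29.4% against 82.2%). Otx2, a homeodomain factor of forebrain and midbrain, was in 2 of 17 (11.8% against 36.3%). Of the 42 regional and midbrain genes set beside the 9 factors, 18 were high enough to be compared, and by a margin of more than 50 points 6 were lower and 0 higher, the 6 being Nr4a2, Lmx1a, Foxa2, Foxa1, En1 and Foxp2. Over all 16904 entries compared in this way, 0.136% were higher and 0.160% lower by more than 50 points, that is 23 and 27 entries. These 23 include Pitx1 and Lhx9, which defined the cells. One LIM-homeodomain gene of that list below the limit for comparison, Lhx2, was over 10 in 6 of the 17 cells (35.3%) and in 0 of the others.

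Of the 6 dopamine neuron markers, 5 were lower by that margin, namely Th, Nr4a2, the dopamine transporter Slc6a3 (0 of 17 against 57.7%), the decarboxylase Ddc (0 of 17 against 86.4%) and the vesicular monoamine transporter Slc18a2 (1 of 17 against 79.96%). Pitx3 was the sixth. The following genes were named after their values were seen. C1ql2, a secreted C1q-like synaptic protein, was in 13 of 17 cells against 0.223% of the others, Tac1, the precursor of substance P, in 14 of 17 against 11.8%, and Rgs10, a regulator of G protein signalling, in 15 of 17 against 15.6%. Mab21l2 was in 10 of 17 against 1.34%, and the RNA-binding protein gene Rbfox1 in 15 of 17 against 23.6%.

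**Figure D3:**
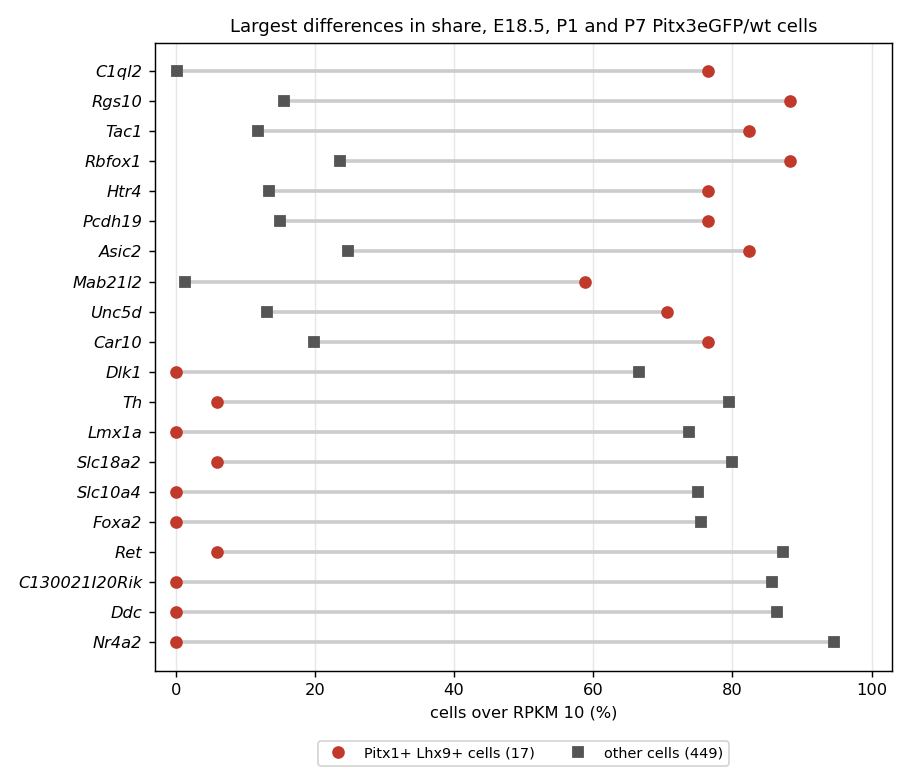
Share of cells over an RPKM of 10 (percent, horizontal axis) in the 17 Pitx1 and Lhx9 cells (circles) and all other Pitx3eGFP/wt cells of E18.5, P1 and P7 (squares), for the 10 entries with the widest difference in each direction, Pitx1 and Lhx9 left out. C1ql2 lies at 76.5% against 0.223%, and Nr4a2, Lmx1a and Foxa2 at 0 against 73.7% or more.

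When the comparison was narrowed by limits on Th and Slc17a6, 4 of the 6 genes named above stayed lower by more than 50 points and 2 did not. Among E18.5, P1 and P7 cells with Slc17a6 over 10 and Th not over 150, 15 were Pitx1 and Lhx9 cells. Th was not matched under this limit: 1 of the rest had it at 148.2, and the Pitx1 and Lhx9 cells at 27.7 at most. Nr4a2 was in 0 of the 15 against 96.2% of the rest, Foxa2 in 0 against 83.96%, Lmx1a in 0 against 78.3% and Foxa1 in 0 against 58.5%. En1 was in 3 of the 15 against 54.7% (difference -34.7 points, -50.6 to -7.81), and Foxp2 at 33.3% against 68.9% (difference -35.5 points, -55.4 to -8.89). Pitx3 went the other way, at 93.3% against 40.6% (difference 52.8 points, 27.7 to 63.2), and C1ql2 was in 12 of the 15 against 0. The Pitx1 and Lhx9 cells were 7 of 41 such cells of E18.5, 1 of 66 of P1 and 7 of 14 of P7. Nxph4, a neurexophilin, did not separate the classes beyond counting error, at 73.3% and 63.2% over an RPKM of 10 (difference 10.1 points, -16.6 to 28.5). Over an RPKM of 150, Nxph4 was in 0 of the 17 Pitx1 and Lhx9 cells and 13.4% of all other cells of these stages. That difference was -13.4 points (-16.8 to 5.29), also within counting error.

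Markers of other cells were measured beside these results. All 17 cells had at least 3 of 5 neuronal markers over 10. At least 3 of 10 oligodendrocyte-lineage markers were over 10 in 4 of the 17 (23.5%), against 5.57% of the others and 11.7% of other cells in the same mix of stages, led by Mbp in 12 and Cnp in 11 of the 17, while Sox10, Pdgfra, Gpr17, Mog and Mag were over 10 in none. The summed RPKM of the oligodendrocyte list ran from 0.333 through a median of 93.3 to 380, against 0, 7.46 and 704 in the cells with none of the 9 factors. At least 3 of 4 microglial markers were over 10 in 1 of the 17 and at least 3 of 5 astrocyte markers in 2, with no cell reaching 3 endothelial or progenitor markers. The part of carried-over RNA or doublets in the result was not tested. The unsupervised clustering of cells placed the 17 in 5 clusters that held 6, 5, 3, 2 and 1 of them.

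Across all 1114 Pitx3eGFP/wt cells, with the mean of each stage taken off, the entry most like Pitx1 was Lhx9 (Pearson's r = 0.84 of log2(RPKM + 1), over 16904 entries), followed by C1ql2 (r = 0.78) and Gli3 (r = 0.67). For Lhx9 the order was Pitx1, C1ql2 (r = 0.63) and Gli3 (r = 0.59). These points share their titled sets and depth, and most are at 0 for every one of these genes. Gli3, the zinc finger transducer of Hedgehog signalling, was over 10 in 11 cells, of which 8 were Pitx1 cells.

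Lhx9 without Pitx1 was a different set of cells. There were 6 in Pitx3eGFP/wt mice, 4 at E13.5, 1 at P1 and 1 of the P1 or P7 class. The E13.5 cells had Lhx9 at 96.5, 46.2, 30.9 and 117.4, and the other 2 at 125.5 and 91.9, so their levels overlapped those of the Pitx1 cells. Th was over 150 in 4 of these 6, and Nr4a2 was over 10 in all 6, from 188.4 to 1172. Both measures stood apart from the 17 cells above, where the Th share was 0 and the highest Nr4a2 RPKM was 3.65. Those 17 were of E18.5, P1 and P7, so stage and class cannot be told apart for the E13.5 cells. Nr4a2 was over 10 in 98.6% of all Pitx3eGFP/wt cells at E13.5 and in 93.8% at P1.

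Nkx2-1 was positive in 9 Pitx3eGFP/wt cells, 4 at P1, 3 of the P1 or P7 class and 2 at P7, and in none before birth or at P90. All 4 P1 cells were among those without spike-in RNA, and the P1 set with spike-in had 0 of 94. All 9 thus came from cells titled P1 or P7. The P1 cells had 94.7, 550, 196.4 and 26.7, the P1 or P7 cells 83.2, 395 and 98.1, and the P7 cells 228.3 and 11.1. Th was over 150 in 1 of the 9 (11.1% against 64.5% of other cells, difference -53.4 points, -62.9 to -20.9), and that cell, of the P1 or P7 class, was also the only one with Pitx3 over 10. In the other 8 Th was no higher than 2.32. Only 2 of the 9 had eGFP over 10 (22.2% against 77.6%), although the cells had been sorted for GFP, and 5 had Slc17a6 over 10. All 9 had at least 3 neuronal markers, 2 of the 9 also had at least 3 oligodendrocyte markers (22.2% against 3.08% of other cells, difference 19.1 points, 3.20 to 51.7, and 9.86% in the same mix of stages), and 1 had at least 3 astrocyte markers. The part of such RNA in the low Th and eGFP shares was not tested. Without the merged pairs 6 Nkx2-1 cells remained.

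Zic4 was positive in 11 Pitx3eGFP/wt cells, 2 from E18.5, 7 from P1 and 2 from P7. All 7 P1 cells were among those without spike-in RNA (5.26% of them), and the P1 set with spike-in had 0 of 94 (exact upper limit 3.85%). The 5 Zic4 cells with Th over 150 had Zic4 at 49.9, 12.5 (a single read), 22.4, 108.3 and 24.1. The 6 without had 121.9, 740.02, 500.5, 93.4, 100.4 and 261.04. Zic4 was thus higher in most of the cells low in Th, with an overlap between 93.4 and 108.3. Slc17a6 was over 10 in 8 of the 11 (72.7% against 67.8%). Pitx3 was over 10 in the 5 cells with high Th alone. Transcripts of eGFP were over 10 in 5 of the 11 Zic4 cells against 77.4% of the others (difference -31.97 points, -56.3 to -5.31). At least 3 oligodendrocyte markers were over 10 in 2 of the 11 (18.2% against 3.08%, and 7.06% in the same mix of stages), and at least 3 neuronal markers in 10. The part of such RNA in the relation to Th was not tested.

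Zic1 was found in 5 Pitx3eGFP/wt cells, at 10.2 in 1 cell of E13.5, 382.2 and 11.4 at P1, and 80.9 and 28.9 at P7. The 2 Zic1 cells with Th over 150 were the ones at 10.2 and 11.4, just over the threshold. Transcripts of eGFP were over 10 in 2 of the 5. Zic1 shared 3 cells with Zic4, the entry most like it (r = 0.57), and the growth factor gene Igf2 came next (r = 0.45).

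Barhl1 was positive in 4 Pitx3eGFP/wt cells, 1 at P1 with 432 and 3 at P7 with 26.4, 125.7 and 134.5. None had Th over 150, the highest being 1.43, or Pitx3 over 10, the highest being 5.42. Transcripts of eGFP were over 10 in 1 of the 4. Zic4 was positive in 3 of the 4. The P1 cell was the only one of the 1114 with 4 of the factors. It had Barhl1 at 432, Zic1 at 382.2, Zic4 at 740.02 and the T-box factor Eomes at 187.3. Its Lmx1a was at 226.9, its Nr4a2 below 1 and its eGFP at 0. The remaining P7 cell, with Barhl1 at 26.4, carried Nkx2-1 at 228.3, Lmx1a at 126.99 and Nr4a2 at 313.1. At least 3 of 5 neuronal markers were over 10 in 3 of the 4 Barhl1 cells and 4 of the 5 Zic1 cells. At least 3 of 5 progenitor markers were over 10 in 1 cell each of the Barhl1, Zic1 and Zic4 sets, against 0 of the 1033 cells with no factor. These sets share cells and had the same highest summed progenitor RPKM, 755.1, so this can be 1 cell counted in each set.

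Eomes and Otp were the rarest. Besides the P1 cell, Eomes was at 76.3 in 1 E15.5 cell with Th at 495 and Pitx3 at 477. Otp was at 65.9 in 1 E13.5 cell with Th at 560 and Pitx3 at 353. With 1 or 2 cells, no share of Th or Slc17a6 can be read from either.

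Tcf7l2 differed from the other 8 in being spread over all stages, with 8 positive cells before birth (5 of them at E13.5, 3.57%), 16 from P1 (7.05%), 3 of the P1 or P7 class (6.98%), 12 from P7 (23.1%, 12.5 to 36.8%) and 4 from P90. Its RPKM in the 43 cells had a lowest, median and highest value of 10.4, 41.1 and 4744, the highest in an E13.5 cell with Th at 216.2. Th was over 150 in 20 of the 43 (46.5%, 31.2 to 62.3%) against 64.8% of other cells, a difference of -18.3 points (-32.6 to -3.43). Pitx3 and Slc17a6 were each over 10 in 21 of the 43 (48.8%), against 66.01% (difference -17.2 points, -31.7 to -2.48) and 68.6% (difference -19.8 points, -34.3 to -5.10). At least 3 neuronal markers were over 10 in 33 of the 43 Tcf7l2 cells (76.7%), against 99.8% of cells with none of the 9 factors. At least 3 markers were over 10 in 6 for oligodendrocytes, 5 for astrocytes, 5 for endothelium, 4 for microglia and 2 for progenitors. Their part in the lower Th, Pitx3 and Slc17a6 shares was not tested. The entries most like Tcf7l2 were Lyl1, Gm26669 and Ctsh (r = 0.32, 0.32 and 0.30).

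**Figure D4:**
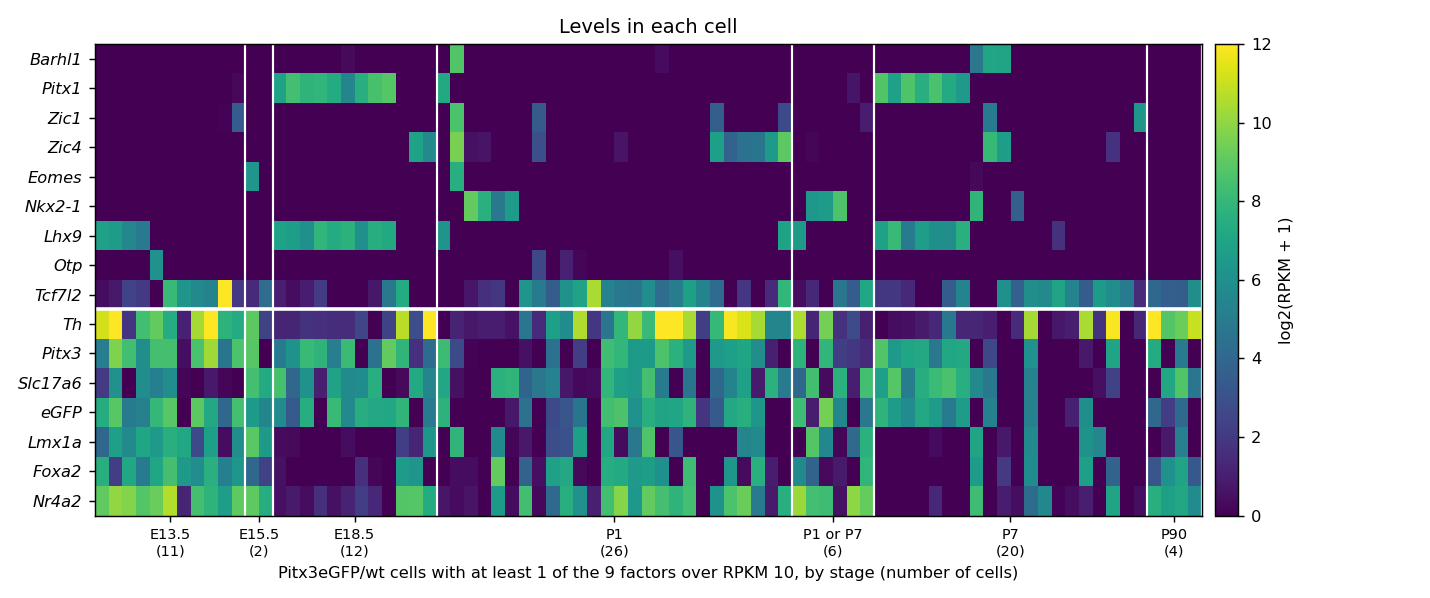
Levels, as log2(RPKM + 1) by colour, of the 9 factors (upper lines) and of genes compared with them (lower lines) in each of the 81 Pitx3eGFP/wt cells positive for at least 1 factor (columns, by stage). The Pitx1 and Lhx9 cells of E18.5 and P7 show both factors with Pitx3 in most of them and little or no Th.

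Over the 9 factors together, 56 Pitx3eGFP/wt cells carried 1 factor, 17 carried 2, 7 carried 3 and 1 carried 4. Of the 36 possible pairs of factors, 15 shared at least 1 cell, 6 shared 3 or more, and 21 shared none. The pairs with 3 or more were Pitx1 with Lhx9 (17 cells), Lhx9 with Tcf7l2 (4 cells), and, with 3 cells each, Barhl1 with Zic4, Zic1 with Zic4, Zic4 with Tcf7l2 and Pitx1 with Tcf7l2. Otp shared no cell with another factor in Pitx3eGFP/wt mice. In Pitx3eGFP/eGFP mice 37 cells carried 1 factor and 4 carried 2.

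Taken as 1 class, the 81 positive cells had Th over 150 in 32 (39.5%, 28.8 to 50.99%) against 66.02% in the 1033 cells with no factor, which is -26.5 points (-36.8 to -15.2). Other cells drawn in the same mix of stages had 71.8%. Without the 17 Pitx1 and Lhx9 cells the share was 32 of 64 (37.2 to 62.8%). Pitx3 was over 10 in 58.02% of the 81 against 65.9% and Slc17a6 in 60.5% against 68.4%, both differences of about -7.9 points (counting intervals -19.1 to 2.66 and -19.2 to 2.40). At E13.5 alone the order of Th was the other way, with Th over 150 in 9 of 11 positive cells and in 62.8% of the others (difference 19.03 points, -11.5 to 34.7). At E18.5, P1 and P7 together it was 16 of 58 (27.6%) against 73.3% (difference -45.7 points, -56.3 to -32.3), and eGFP over 10 was also less frequent there, at 55.2% against 89.2% (difference -34.0 points, -47.0 to -21.5). Neither Th over 150 nor Slc17a6 over 10 was found in 27.6% of these 58 cells against 3.43%. At least 3 oligodendrocyte markers were over 10 in 12 of the 58 (20.7%) against 4.17% (difference 16.5 points, 7.75 to 28.7), and over all stages in 14.8% against 6.63% of other cells in the same mix of stages. Their part in the lower Th and eGFP shares was not tested.

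The genotypes were compared at E13.5 and P1, the stages at which both were sampled. At E13.5, 26 Pitx3eGFP/eGFP cells (14.5%) and 11 of 140 Pitx3eGFP/wt cells (7.86%) were positive for at least 1 factor, a difference of 6.67 points (-0.514 to 13.5). It was 32.2 points with positive cells counted over an RPKM of 1 and turned to -0.531 over 50. With every cell thinned to 100000 reads it was 12.1 points (3.27 to 20.5), at 25.7% against 13.6%, and it was 3.01 points without the set titled 13H_4. Every homozygous E13.5 cell had spike-in RNA and no heterozygous one did, so genotype and spike-in cannot be told apart at this age. Barhl1 was in 6 cells against 0 of 140 (3.35% against 0, difference 3.35 points, 0.128 to 7.12). The interval included 0 over an RPKM of 50 (1.12 points, -1.67 to 3.98) and without the set titled 13H_4 (2.17 points, -0.927 to 7.58). These 6 cells had Barhl1 at 32.7, 12.1, 58.6, 254.05, 28.7 and 41.3. They came from 2 of the 3 homozygous titled sets (4 of 87 and 2 of 70 cells). All had Lmx1a over 10, from 96.8 to 348.03, and Nr4a2 over 10, from 87.9 to 1110. Over all homozygous E13.5 cells, Lmx1a was over 10 in 88.8% and Nr4a2 in 93.3%. The 4 heterozygous Barhl1 cells were all of P1 or P7, so genotype and stage cannot be told apart between these sets. Homozygous E13.5 cells were shallower, with a median of 753260 reads against 2357900.

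Among the other factors of Pitx3eGFP/eGFP cells, Pitx1 was positive in 2 E13.5 cells. One of them had Pitx1 at 689 and Lhx9 at 529, with Th at 0 and Slc17a6 over 10 and with Pitx3 at 3.26, not over 10, whereas the other had Pitx1 at 15.9 and Lhx9 at 0. Otp was in 2 E13.5 cells (37.03 and 16.8), the second also with Nkx2-1 at 33.6, and Nkx2-1 was in 3 cells at E13.5 and 2 at P1. Both P1 cells, with Nkx2-1 at 78.96 and 36.5, had Th over 150 (2035 and 1663), while in the 4 P1 heterozygous Nkx2-1 cells, which unlike them had no spike-in RNA, it was no higher than 0.936. At P1, 15 Pitx3eGFP/eGFP cells (9.20%) and 26 Pitx3eGFP/wt cells (11.5%) were positive for any factor (difference -2.25 points, -8.22 to 4.21). All homozygous cells had spike-in RNA. Against the P1 heterozygous set with spike-in alone the difference turned to 4.95 points (-2.18 to 10.96), so no direction can be given at P1.

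**Figure D5:**
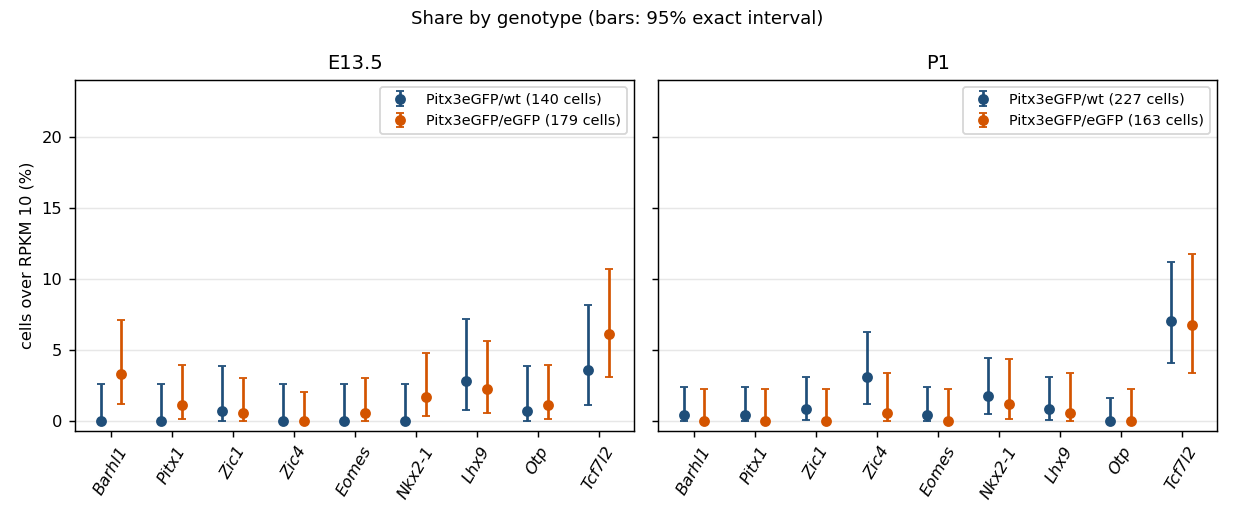
Share of cells over an RPKM of 10 (percent, vertical axis) for each factor (horizontal axis) in Pitx3eGFP/wt and Pitx3eGFP/eGFP cells at E13.5 (left) and P1 (right), with exact 95% intervals as bars. Barhl1 is at 3.35% in homozygous and 0 in heterozygous E13.5 cells, and Tcf7l2 at P1 is at 6.75% and 7.05%.

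Mean RPKM over all cells of a stage was dominated by the few positive cells. With a call at more than 2-fold on mean RPKM + 1 and a limit of 1 on the higher mean, the factors called higher and lower numbered 0 and 2 of 2 compared for E15.5 over E13.5 (all entries, 7.10% and 7.51%), 3 and 0 of 3 for E18.5 over E15.5 (11.7% and 5.05%), 5 and 2 of 7 for P1 over E18.5 (5.13% and 0.923%), 3 and 0 of 7 for P7 over P1 (10.6% and 6.27%), and 0 and 7 of 7 for P90 over P7 (9.32% and 18.7%). The factors had been chosen for their stage pattern and only passed the limit where a stage held positive cells, so nothing is read from these counts. Without the cells titled P1 the calls numbered 2 in place of 7 for P1 over E18.5 and 7 in place of 3 for P7 over P1. Pitx1 moved from a mean of 11.4 in E18.5 cells to 0.684 in P1 cells and 33.9 in P7 cells, and Lhx9 from 6.96 to 0.874 and 16.2. For Pitx3eGFP/eGFP over Pitx3eGFP/wt, 2 and 0 of 4 factors were called higher and lower at E13.5 (all entries, 4.35% and 4.77%) and 0 and 5 of 5 at P1 (4.72% and 3.55%). Among the 42 regional and midbrain genes, 15 of 27 compared were higher and 1 lower at E13.5, and 1 of 21 higher and 6 lower at P1. A rare gene or factor could pass the limit only through the genotype where it was high. At E13.5 the genotypes also differed in spike-in RNA and depth. Nothing is therefore read from these genotype counts either. Without the set titled 13H_5 there was 1 call among the factors at E13.5, and without 13H_4 or 13H_6 there were 3, in place of 2. Against the P1 heterozygous cells with spike-in RNA, 1 member call was made in place of 5 at P1.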

How the data were processed

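GFP-positive ventral midbrain cells were profiled with Smart-seq2. The authors aligned 43-base single-end reads with STAR v2.3.0 to mm10 with eGFP and spike-in sequences added, used reads with a single mapping position and computed RPKM with rpkmforgenes on Ensembl release 69; the submitters' notes name STAR and mm10 with no version. The deposited files hold RPKM values and read counts per entry, 1 file per cell. RPKM is corrected for length and depth, and in shallow cells 1 read can exceed a threshold: at 100000 reads, 1 Tcf7l2 read is an RPKM of 13.2, against 2.31 to 5.41 for the other factors.

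Cells needed 100000 reads and 15% of detectable entries (3.4% at P90), limits taken from the study's methods. Near-identical P1 and P7 files with the same number (57 pairs, of 109 shared numbers) were merged. Clusters (50 principal components of 453 variable genes, 5 nearest neighbours, infomap, igraph 0.11.9) with at least 3 of 10 oligodendrocyte markers over 10 in most cells were left out. No doublet caller was run, and cells were not filtered on eGFP. Thresholds were an RPKM of 10, and of 150 for Th, Slc6a3, Nxph4 and Gad2 (unless an RPKM of 10 is stated). Shares have exact Clopper-Pearson intervals and differences have Newcombe intervals, both 95% (scipy 1.17.1, statsmodels 0.14.6). These cover counting error only, since reads carry no molecular identifiers and each stage and genotype is 1 sample. Means of a stage were compared as log2 of mean RPKM + 1. Correlations used log2(RPKM + 1), less the stage mean, over entries over 10 in at least 10 cells. The scripts were tested on simulated data. The 9 factors, the lists and the alternatives were chosen with earlier results of these data known. Named genes are the 9 factors, genes compared with them, a list of 42 regional and midbrain genes, marker lists and the 3 entries most like each factor, except where said; 1 of these genes is not reported here. Results under other settings are in the closing section.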

Additional observations from a re-analysis of the deposited data

Results flagged for a closer look

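Tcf7l2 was over an RPKM of 10 in 86.01% (exact 95% interval 79.2 to 91.2%) of the oligodendrocyte-like cells that no comparison above used, against 5.54% of the kept cells of the same stages and genotypes, a difference of 80.5 percentage points (73.6 to 85.4). Mean Tcf7l2 RPKM was 124.4 in the cells left out and 5.63 in those kept. None of the other 8 factors differed between the classes beyond counting error: Nkx2-1 was over 10 in 5 of the cells left out (3.50% against 1.35%), Zic4 in 3, Zic1 and Lhx9 in 1 each, and Pitx1, Barhl1, Eomes and Otp in 0, which allows each at most 2.55% (exact upper limit). The part of such cells in the Tcf7l2 counts of kept cells was not tested.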

How the results depend on the processing

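No paired analysis was possible because the labels name no animals and each stage and genotype is 1 sample. Among the main results 30 values under other settings lay outside the counting interval of the reported value. The only differences among them, those between genotypes, had intervals that included 0. A turn of a difference that lay off 0 could therefore not occur. Any-factor share of Pitx3eGFP/wt cells (7.27%): 35.5% at an RPKM limit of 1, 4.85% at 50, 12.2% with cells thinned to 100000 reads, 15.4% with oligodendrocyte-like cells kept, 4.13% without Tcf7l2 and 3.72% without the cells titled P1 and P7. At E13.5 it was 26.4% at a limit of 1. At P90 it was 25.5% at 1, 0.308% at 50, 6.77% thinned and 0 without Tcf7l2. Positive cells with at least 2 factors (30.9%): 12.4% at 1, 18.4% thinned, 16.2% with oligodendrocyte-like cells and 50% without Tcf7l2. Th over 150 in positive cells (39.5%): 60.8% at 1, 20.9% with oligodendrocyte-like cells, 28.3% without Tcf7l2 and 57.6% without the cells titled P1 and P7. Pitx3 (58.02%): 33.5% with oligodendrocyte-like cells and 81.8% without those titled P1 and P7. Slc17a6 (60.5%): 28.8% and, without Tcf7l2, 71.7%. Homozygous minus heterozygous share at E13.5 (6.67 points): 32.2 at 1 and -0.531 at 50, where the direction turns. The same at P1 (-2.25 points, also turning): 5.47 at 1 and 4.95 without the cells titled P1 and P7. Without those cells 14 of the 26 pairs of factor and stage with a positive cell remained, and 3 of the 15 pairs of factors with a shared cell. These cells were left out, and the pairs split or dropped, after the data were seen. Tcf7l2 was over 10 in 86.01% of the oligodendrocyte-like cells. A single Tcf7l2 read had a median RPKM of 0.797 in its own cell and of 13.2 at 100000 reads. The cause of these moves was not tested.

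Leaving out each titled set in turn gave 6.01 to 7.84% for the any-factor share, 0.858 to 1.43% for P90 and 23.6 to 37.3% for at least 2 factors. It gave 37.7 to 44.4% for Th, 55.6 to 64.4% for Pitx3 and 58.3 to 61.3% for Slc17a6. The genotype difference ran from 3.01 to 9.57 points at E13.5 and from -7.34 to 4.95 points at P1. There were 21 to 26 pairs of factor and stage, 10 to 15 pairs of factors and 24 to 31 member fold calls (29 with all). With all cells, every Pitx3eGFP/wt Pitx1 cell was Lhx9-positive and 0 of them had Th over 150. Leaving out cells could not change either value, so these settings do not test them. Without the set titled 18_2 the Pitx1 and Lhx9 share of E18.5 was 1.09% in place of 4.81% and that of Pitx1 over all stages 0.883% in place of 1.53%. Without the cells titled P1 the share was 0.408% in place of 0.987% for Zic4, 0.510% in place of 0.808% for Nkx2-1 and 0.102% in place of 0.180% for Eomes. Without the set titled 13H_4 the E13.5 difference was 3.01 points for any factor and 2.17 in place of 3.35 for Barhl1.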
